A study of Homo sapiens with 12 samples.

Results

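The Hippo pathway limits the activity of the transcriptional coactivators YAP and TAZ, which have no DNA-binding domain of their own and act on genes through the TEAD family of DNA-binding proteins. The mRNA of 10 genes of this axis was followed in EGFR-mutant lung cancer cells before and after EGFR inhibition. YAP1 and WWTR1 encode YAP and TAZ, and TEAD1 and TEAD4 encode DNA-binding partners of both. CCN1 and CCN2 (formerly CYR61 and CTGF) encode secreted matricellular proteins and, with ANKRD1, which encodes an ankyrin repeat protein, are the genes most often read out as targets of YAP and TEAD. AMOTL2 and LATS2 are targets that encode inhibitors of YAP, a scaffold of the angiomotin family and a kinase. CCN5 (formerly WISP2) is a member of the CCN family that lacks the C-terminal domain of its relatives. The 10 genes were picked by name, as the rows of the gene table with these symbols, and make up 10 of the 60591 genes listed. All 10 were among the 19108 genes that passed the expression filter and were tested.

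The cells were PC9 and H1650, established lines from EGFR-mutant non-small cell lung cancer, each with 3 groups of 2 libraries (12 libraries in 6 groups). T0 cells carried the vehicle, 0.1% DMSO, and were taken at 0 h, when the drugs were added. Treated cells had 36 h of 10 µM erlotinib, a first-generation EGFR inhibitor, or of 0.1 µM osimertinib, a third-generation inhibitor. The study sequenced both lines to ask whether gene expression could account for their different sensitivity to these inhibitors. A difference between the lines is one between these 2 lines only, and the 2 replicates of a group are described as biological replicates. Treated cells were 36 h older than T0 cells, and no vehicle library of 36 h was analysed here, so an effect of drug and an effect of time in culture cannot be told apart. In bulk RNA, fewer cells of a kind and less RNA per cell cannot be told apart either.

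Levels are the authors' read counts scaled by library size and TMM normalization to CPM, called normalized CPM. Libraries held between 17961765 and 26346187 counted reads. For a count of 0, a limit of 3 reads was chosen (counting error only), which corresponded to between 0.116 and 0.168 CPM. The 5 epithelial markers EPCAM, KRT8, KRT18, KRT19 and CDH1 were expressed in every group, the lowest mean being 190 CPM for CDH1 in PC9 at T0. Of 8 markers of blood, vessel and stroma, 4 passed the filter, DCN had at most 1 read and CD3E at most 4 reads in any library, and COL1A1 was the most abundant, with group means from 10.6 to 40.7 CPM. Genes with an adjusted p below 0.05 (quasi-likelihood F test of edgeR, Benjamini-Hochberg over all 19108 genes) were called changed. Fold changes are given on the log2 scale with the standard error (SE) of the fit.

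In PC9, CCN2, CCN5 and AMOTL2 rose after either drug and ANKRD1 fell by the largest amount of the 10 genes. In H1650, CCN1, CCN2 and ANKRD1 fell, AMOTL2 fell slightly, and CCN5, already detected at T0, rose slightly. YAP1 mRNA moved little in either line, whereas TEAD4 fell in both. Erlotinib changed 8 of the 10 genes in PC9, 4 higher and 4 lower, where 61.8% of all tested genes were called (32.7% higher, 29.1% lower). Osimertinib changed 8 in PC9, 6 higher and 2 lower, where 61.4% of all genes were called (32.7% higher, 28.7% lower). In H1650, erlotinib changed 9 genes, 2 higher and 7 lower, against 36.5% of all genes (18% higher, 18.5% lower). Osimertinib changed 8 genes there, 2 higher and 6 lower, against 35.7% (17.8% higher, 17.9% lower). The share of the 10 genes that was called was above these percentages, but no test of the set was made. The 2 comparisons within a line share their T0 libraries and are not independent. Apart from CCN5 and ANKRD1, the 10 genes had at least 385 reads in every library. Well-counted genes are called more easily than the mixed background, so no result about the set is drawn from these shares. The margins of the 2 lines cannot be compared, because the higher background in PC9 leaves less room above it. The median log2 fold change over the 10 genes was 0.17 and 0.59 in PC9 with erlotinib and osimertinib, beside medians of 0.074 and 0.064 over all tested genes. In H1650 it was -0.39 and -0.42, beside 0.0051 and 0 over all tested genes. CCN5 enters these medians with a fitted value that rests on T0 libraries at 0 in PC9, but at its lower bound it would still be the highest of the 10, so the medians stay as they are. Changes of more than 2-fold, a size counted after the number of calls was seen, were fewer. They included 3 and 4 of the 10 genes in PC9, where 30.8% and 31.2% of all genes changed by this much, and 3 genes with each drug in H1650, where 8.12% and 7.3% did.

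**Figure D1:**
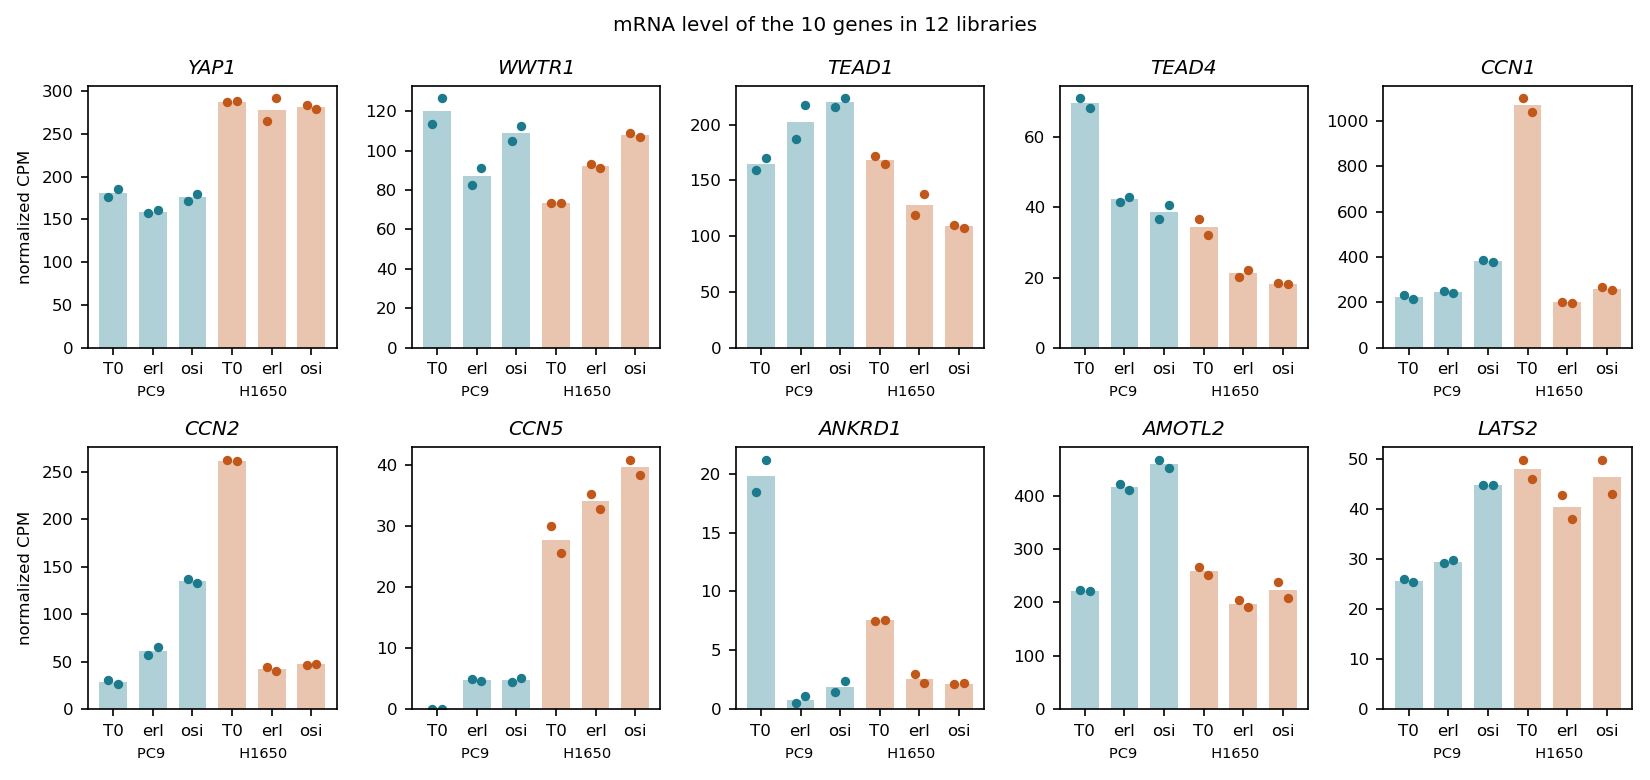
Normalized CPM (y axis, linear from 0, own scale in each panel) of the 10 genes in PC9 (teal) and H1650 (orange) at T0 and after 36 h of erlotinib (erl) or osimertinib (osi). Points are the 2 libraries of a group and bars their mean. CCN1 and CCN2 stand highest in the H1650 T0 libraries, CCN5 is at 0 in PC9 at T0, and ANKRD1 is highest in PC9 at T0.

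Of the coactivators, YAP1 changed little. YAP1 (chr11:102110461-102233423 in GENCODE 29 on GRCh38) had 176 and 186 CPM in the 2 PC9 T0 libraries, 157 and 161 CPM after erlotinib, and 172 and 180 CPM after osimertinib. In H1650 it had 287 and 288 CPM at T0, 265 and 291 CPM after erlotinib, and 284 and 279 CPM after osimertinib. Both erlotinib libraries of PC9 lay below both T0 libraries, while the osimertinib libraries of PC9 and the erlotinib libraries of H1650 overlapped with T0. YAP1 fell by 0.19 (SE 0.0705, adjusted p = 0.0243 in edgeR) after erlotinib in PC9, and this call was lost without PC9 T0 replicate 2 (log2 fold change -0.15), without erlotinib replicate 1 (-0.17) and without erlotinib replicate 2 (-0.20). With upper quartile normalization YAP1 stood at -0.09 in this comparison and was not called either (adjusted p = 0.204 in edgeR). The other 3 changes of YAP1 were between -0.05 and -0.03 and were not called, and their 95% intervals reached from -0.19 to 0.11.

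WWTR1 (chr3:149517235-149736714), which encodes TAZ, moved in opposite directions in the lines. Its level in PC9 was 113 and 126 CPM at T0, 82.6 and 91.3 CPM after erlotinib and 105 and 113 CPM after osimertinib, so that both drugs left every treated library below both T0 libraries. In H1650 it was 73.3 and 73.2 CPM at T0, 93.1 and 91.2 CPM after erlotinib and 109 and 107 CPM after osimertinib, with all 4 treated libraries above T0. WWTR1 fell by 0.46 (SE 0.0777, adjusted p = 8.1e-06 in edgeR) after erlotinib in PC9, and the osimertinib value there, -0.14 (SE 0.0776, adjusted p = 0.112 in edgeR), was not called. It was called at -0.23 when no expression filter was applied (adjusted p = 0.0186 in edgeR) and at -0.20 when each line was fitted alone (adjusted p = 0.0300 in edgeR). In H1650 it rose by 0.33 (SE 0.0788) after erlotinib and by 0.56 (SE 0.0784) after osimertinib, and both were called. Counted per kilobase of gene length as the deposited table gives it, YAP1 made up 66.8% ± 0.85 (SD, n = 2) of the summed YAP1 and WWTR1 level in PC9 at T0 and 84.0% ± 0.061 in H1650. After erlotinib and osimertinib the share was 70.9% ± 1.15 and 68.3% ± 0.404 in PC9, and 80.1% ± 1.32 and 77.7% ± 0.0747 in H1650. Exons of YAP1 and WWTR1 overlap antisense genes over 9.97% and 9.45% of their bases, and because the strandedness of the libraries is not given in the sources used here, reads from these stretches cannot be assigned to one strand.

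TEAD1 and TEAD4 encode DNA-binding proteins of the same family, and their mRNAs behaved differently. TEAD1 (chr11:12674591-12944483) had 160 and 170 CPM in PC9 at T0, 188 and 218 CPM after erlotinib and 216 and 224 CPM after osimertinib. In H1650 it had 172 and 164 CPM at T0, 119 and 138 CPM after erlotinib and 110 and 108 CPM after osimertinib. Treated libraries thus stood above T0 in PC9 and below T0 in H1650, without overlap. The changes were 0.30 (SE 0.0803) and 0.42 (SE 0.0805) in PC9 and -0.39 (SE 0.0811) and -0.62 (SE 0.0815) in H1650 for erlotinib and osimertinib, and all 4 were called. The erlotinib call in PC9 was lost without PC9 erlotinib replicate 2, where the value was 0.18.

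TEAD4 (chr12:2959330-3040673) fell in both lines with either drug. It had 71.1 and 68.4 CPM in PC9 at T0, 41.5 and 43.1 CPM after erlotinib and 36.6 and 40.6 CPM after osimertinib. In H1650, which started lower, it had 36.8 and 32.0 CPM at T0, 20.2 and 22.3 CPM after erlotinib and 18.4 and 18.2 CPM after osimertinib. No treated library reached the T0 level of its line. The log2 changes were -0.72 (SE 0.0907) and -0.86 (SE 0.0923) in PC9 and -0.70 (SE 0.0989) and -0.91 (SE 0.0999) in H1650, all called. The H1650 change less the PC9 change, called the drug-by-line difference, was 0.03 (95% interval -0.25 to 0.30) with erlotinib and -0.06 (-0.33 to 0.22) with osimertinib, and neither was called.

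The make-up of the TEAD family shifted with these changes, which were set beside TEAD2 and TEAD3, the other two family members. Per kilobase, TEAD4 was the leading TEAD mRNA in PC9 at T0, with 39.3% ± 0.268 (SD, n = 2) of the summed level of the 4 genes. It held 18.7% ± 0.206 after erlotinib and 16% ± 0.943 after osimertinib. Over the same groups the share of TEAD2 went from 18.5% ± 0.0289 to 33.3% ± 1.38 and 35.7% ± 0.127. TEAD2 thus became the most abundant TEAD mRNA of PC9 in both treated groups. In H1650, TEAD3 led in every group, with 38.1% ± 1.34 at T0, 54.6% ± 2.53 after erlotinib and 55.7% ± 0.567 after osimertinib. The summed level of the family was 78.1 ± 1.62 CPM per kilobase in PC9 at T0, 99.4 ± 1.47 after erlotinib and 106 ± 1.54 after osimertinib, and 69.4 ± 0.731, 63.4 ± 0.0364 and 64.4 ± 1.86 in H1650. These shares are descriptions, without a test.

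**Figure D2:**
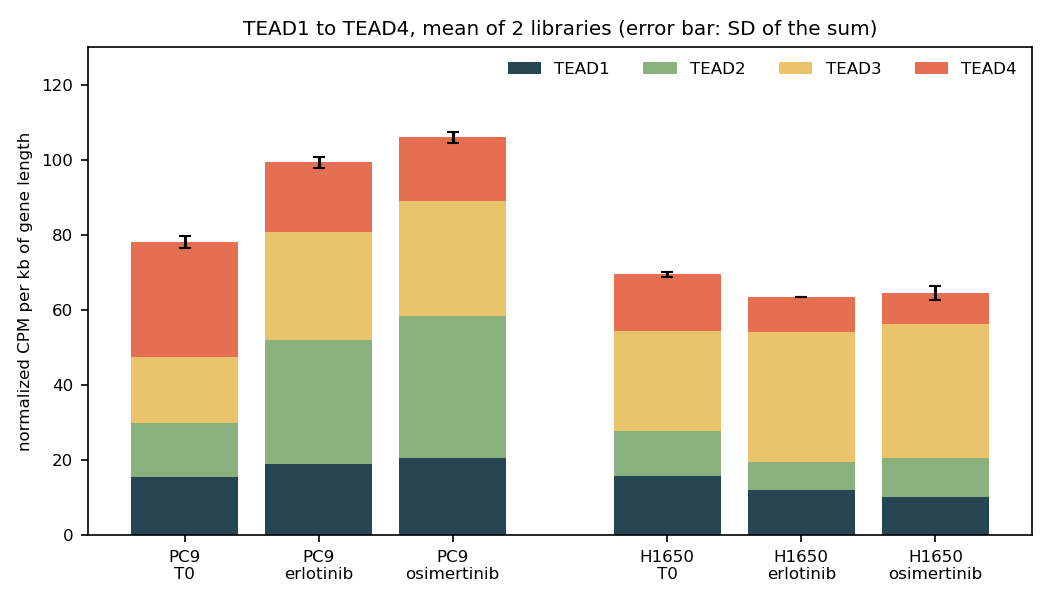
Stacked mean levels of TEAD1, TEAD2, TEAD3 and TEAD4 (y axis, normalized CPM per kilobase of deposited gene length, linear from 0) in the 6 groups. Error bars are the SD of the sum over 2 libraries. The TEAD4 segment is widest in PC9 at T0, at 39.3% of the bar, and TEAD3 takes over 54% of both treated H1650 bars.

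Per kilobase of gene length, CCN1 was the most abundant of the 10 mRNAs in all 6 groups, and its change under drug differed between the lines. CCN1 (chr1:85580761-85583962) had 231 and 216 CPM in PC9 at T0, 250 and 243 CPM after erlotinib and 387 and 376 CPM after osimertinib. In the H1650 libraries it had 1100 and 1039 CPM at T0, 199 and 199 CPM after erlotinib and 266 and 253 CPM after osimertinib. The treated H1650 libraries were all far below T0, and the treated PC9 libraries were all above it. CCN1 fell in H1650 by 2.43 (SE 0.0712, adjusted p = 1.5e-19 in edgeR) with erlotinib, which is 5.37-fold, and by 2.04 (SE 0.0700, adjusted p = 5.6e-18 in edgeR) with osimertinib, 4.12-fold. In PC9 it rose by 0.77 (SE 0.0687, adjusted p = 9.8e-11 in edgeR) with osimertinib. The value after erlotinib, 0.14 (SE 0.0685, adjusted p = 0.0799 in edgeR), was not called, but it was called with upper quartile normalization (0.23, adjusted p = 0.00295 in edgeR) and with a filter of 10 counts per library (0.19, adjusted p = 0.0136). Upper quartile normalization moved the median of all genes in this comparison from 0.0743 to 0.165.

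CCN2 (chr6:131948176-131951373) also fell in H1650, and its rise in PC9 was larger than that of CCN1. It had 30.4 and 26.1 CPM in PC9 at T0, 56.8 and 65.3 CPM after erlotinib and 137 and 133 CPM after osimertinib. The H1650 libraries had 263 and 261 CPM at T0, 44.3 and 39.9 CPM after erlotinib and 46 and 48.0 CPM after osimertinib. No library of a treated group overlapped with T0 of its line. CCN2 rose 2.16-fold with erlotinib (log2 1.11, SE 0.0909) and 4.78-fold with osimertinib (2.26, SE 0.0905) in PC9. It fell 6.23-fold with erlotinib (log2 -2.64, SE 0.0878) and 5.57-fold with osimertinib (-2.48, SE 0.0866) in H1650. In H1650 these sizes exceeded those of 97.7% and 97.6% of all tested genes, and in PC9 they exceeded 67.3% and 87.5%. An antisense gene overlaps 8.34% of the exon bases of CCN2.

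CCN5 (chr20:44714844-44728509) was the gene whose detection itself differed between the lines. No read was counted in either PC9 T0 library, while 111 and 117 reads were counted after erlotinib and 95 and 90 after osimertinib. In H1650 it had 643 and 664 reads at T0, 685 and 706 after erlotinib and 857 and 863 after osimertinib. In PC9, CCN5 was at least 31.9-fold higher after erlotinib and at least 31.5-fold higher after osimertinib. These bounds rest on the chosen limit of 3 reads per library for a count of 0. The treated PC9 levels, 4.77 ± 0.286 and 4.72 ± 0.461 CPM (SD, n = 2), remained below the 27.8 ± 3.09 CPM of H1650 at T0. In H1650 CCN5 rose by 0.51 (SE 0.110, adjusted p = 0.00049 in edgeR) with osimertinib. With erlotinib it rose by 0.30 (SE 0.111, adjusted p = 0.0375 in edgeR), a call that DESeq2 did not make (0.27, adjusted p = 0.159) and that was lost without H1650 T0 replicate 2 (0.18), without erlotinib replicate 1 (0.25) or 2 (0.34) and without osimertinib replicate 1 (0.29).

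Within the CCN family, CCN1 held between 72.6% and 88.0% of the summed level per kilobase in the 6 groups and CCN2 between 11.6% and 26.9%, as means of 2 libraries. The share of CCN2 in PC9 was 11.6% ± 0.658 (SD, n = 2) at T0, 20.4% ± 1.90 after erlotinib and 26.9% ± 0.0327 after osimertinib. In H1650 the family level was 555 ± 18.7 CPM per kilobase at T0, 107 ± 1.76 after erlotinib and 134 ± 3.60 after osimertinib, while the share of CCN5 was 1.00% ± 0.0779, 6.42% ± 0.224 and 5.93% ± 0.102. The other three family members were rare. CCN3 passed the filter but stayed between 0.134 and 1.93 CPM and was called in none of the 4 comparisons with T0. Its log2 values there lay between -0.91 and 0.51, and its unadjusted p missed 0.05 in all 4. CCN4 had at most 4 reads and CCN6 at most 5 reads in any library and were not tested.

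ANKRD1 (chr10:90912096-90921276) had the opposite course to CCN2 in PC9. It had 366 and 429 reads in PC9 at T0, 11 and 28 after erlotinib and 31 and 42 after osimertinib. In H1650 it had 161 and 197 reads at T0, 57 and 48 after erlotinib and 45 and 49 after osimertinib. Every treated library was below every T0 library of its line. The fall in PC9 was 24.3-fold with erlotinib (log2 -4.60, SE 0.257, adjusted p = 4.8e-15 in edgeR) and 10.6-fold with osimertinib (-3.41, SE 0.233, adjusted p = 3.7e-13 in edgeR). The former exceeded the size of change of 98.3% of all tested genes. In H1650 ANKRD1 fell 2.93-fold (log2 -1.55, SE 0.231) and 3.48-fold (-1.80, SE 0.235), and both were called. ANKRD1 and TEAD4 were called lower in all 4 comparisons with T0, and CCN5 was called higher in all 4.

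AMOTL2 (chr3:134355874-134375479) rose in PC9 and fell in H1650. It had 223 and 222 CPM in PC9 at T0, 423 and 411 CPM after erlotinib and 467 and 452 CPM after osimertinib. H1650 had 267 and 252 CPM at T0, 204 and 191 CPM after erlotinib and 239 and 209 CPM after osimertinib. The groups did not overlap with T0 in either line. The rise in PC9 was 1.87-fold (log2 0.91, SE 0.0730) and 2.07-fold (1.05, SE 0.0732). The falls in H1650 were smaller, -0.40 (SE 0.0731) with erlotinib and -0.21 (SE 0.0727, adjusted p = 0.0226 in edgeR) with osimertinib. The latter call was lost without H1650 T0 replicate 1 (-0.17) and without H1650 osimertinib replicate 2 (-0.12).

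LATS2 (chr13:20973032-21061547) had 26 and 25.3 CPM in PC9 at T0, 29.1 and 29.7 CPM after erlotinib and 44.8 and 44.7 CPM after osimertinib. H1650 had 49.7 and 46 CPM at T0, 42.7 and 37.9 CPM after erlotinib and 49.7 and 42.8 CPM after osimertinib. The osimertinib libraries of PC9 stood apart from T0, and those of H1650 overlapped with it. LATS2 rose by 0.80 (SE 0.0971, adjusted p = 3.6e-08 in edgeR) with osimertinib in PC9, and its erlotinib value of 0.20 (SE 0.0984, adjusted p = 0.0858 in edgeR) was not called, although it was called with upper quartile normalization (0.29, adjusted p = 0.0121 in edgeR) and with a filter of 10 counts per library (0.24, adjusted p = 0.0266). In H1650 LATS2 fell by 0.25 (SE 0.0926, adjusted p = 0.0362 in edgeR) with erlotinib, a call lost in DESeq2 (-0.27, adjusted p = 0.0515) and without H1650 T0 replicate 1 (-0.20) or erlotinib replicate 2 (-0.17). The osimertinib value of -0.05 (95% interval -0.24 to 0.14) was not called.

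**Figure D3:**
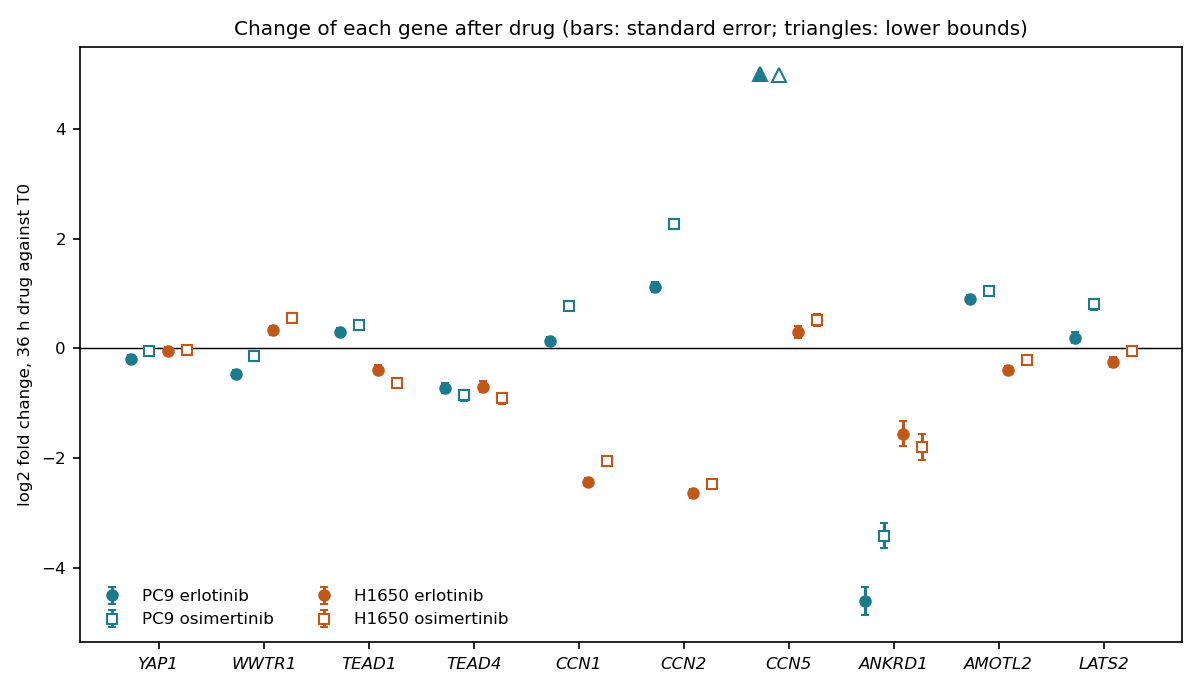
Log2 fold change of each gene against T0 of the same line (y axis, 0 means no change) for erlotinib (filled) and osimertinib (open) in PC9 (teal) and H1650 (orange). Bars are the standard error of the fit and are often smaller than the symbol, and triangles are the lower bounds of CCN5 in PC9, 31.9-fold and 31.5-fold. CCN1, CCN2, TEAD1 and AMOTL2 lie above 0 in PC9 and below 0 in H1650, and TEAD4 and ANKRD1 lie below 0 in all 4 comparisons.

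Whether the change from T0 to 36 h of drug differed between the lines was tested as the drug-by-line difference. With erlotinib 8 of the 10 genes were called, 2 higher and 6 lower in H1650 relative to PC9, where 40.8% of all tested genes were called (21.1% higher, 19.8% lower). With osimertinib 8 were called in the same split of 2 and 6, where 41.9% of all genes were (21.5% higher, 20.5% lower). Both tests use the same T0 libraries for the pair of drugs, so they are not independent. CCN2 had a difference of -3.75 (SE 0.126) with erlotinib and -4.73 (SE 0.125) with osimertinib, and CCN1 of -2.56 (SE 0.0978) and -2.81 (SE 0.0977). AMOTL2 had -1.30 (SE 0.103) and -1.26 (SE 0.103), TEAD1 had -0.69 (SE 0.114) and -1.04 (SE 0.115), and LATS2 had -0.44 (SE 0.135) and -0.85 (SE 0.133). The LATS2 call with erlotinib was lost without H1650 T0 replicate 1 (-0.37) and without H1650 erlotinib replicate 2 (-0.35). For CCN5, the fold rise in PC9 was at least 25.9 times that in H1650 with erlotinib and at least 22.1 times with osimertinib. Differences in the other direction were those of ANKRD1, 3.05 (SE 0.369) and 1.61 (SE 0.346), which fell less in H1650, and of WWTR1, 0.79 (SE 0.111) and 0.70 (SE 0.110). YAP1 and TEAD4 were not called, and for YAP1 the differences were 0.14 (95% interval -0.07 to 0.34) and 0.01 (-0.19 to 0.21).

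The direct comparison of the drugs within a line sets doses of 10 µM and 0.1 µM side by side, so it is a comparison of these treatments and not of the drugs at matched doses. In PC9, 5 of the 10 genes were higher after osimertinib than after erlotinib and none was lower, where 16.6% of all tested genes were called (10.1% higher, 6.41% lower). CCN2 was 2.21-fold higher (log2 1.14, SE 0.0840, adjusted p = 4.4e-11 in edgeR), CCN1 1.55-fold higher (0.63, SE 0.0683) and LATS2 1.52-fold higher (0.61, SE 0.0948). WWTR1 was 1.25-fold higher (0.32, SE 0.0780) and ANKRD1 2.29-fold higher (1.20, SE 0.340, adjusted p = 0.0140 in edgeR), although the ANKRD1 libraries held only 11 and 28 reads after erlotinib and 31 and 42 after osimertinib. Without PC9 erlotinib replicate 1 these last calls were lost (WWTR1 0.25, ANKRD1 0.76), and so they were without PC9 osimertinib replicate 2 (0.27 and 0.82). Either omission left 3 calls. In H1650 only CCN1 was called of the 10 genes, 1.30-fold higher after osimertinib (0.38, SE 0.0688, adjusted p = 0.00037 in edgeR), where 8.75% of all genes were called (5.02% higher). Without H1650 erlotinib replicate 1, 2 genes were called there, TEAD1 being added at -0.34.

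Whether this contrast of treatments differed between the lines was a test added after these values were seen. The CCN2 difference between osimertinib and erlotinib was 1.14 in PC9 and 0.16 (95% interval -0.02 to 0.35) in H1650, and the 2 values differed by -0.98 (SE 0.122, adjusted p = 5e-06 in edgeR). CCN2 was the only one of the 10 genes called here, where 5.21% of all tested genes were (3.4% lower). ANKRD1 had -1.45 (SE 0.436, adjusted p = 0.0507 in edgeR), on the edge of the threshold. Between 1 and 3 genes were called when single libraries were left out. The highest number came without PC9 erlotinib replicate 2, where ANKRD1 (-2.15) and TEAD1 (-0.46) were added.

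Before treatment the lines already differed in 9 of the 10 genes, 6 higher and 3 lower in H1650, where 69.6% of all tested genes were called (35.8% higher, 33.8% lower). CCN2 was 9.26-fold higher in H1650 at T0 (log2 3.21, SE 0.0913) and CCN1 4.78-fold higher (2.26, SE 0.0707), and CCN5 was at least 186-fold higher against the floor in PC9. LATS2 was 1.87-fold, YAP1 1.59-fold and AMOTL2 1.17-fold higher. The AMOTL2 call (log2 0.22, SE 0.0729) was lost without PC9 T0 replicate 2 (0.22, adjusted p = 0.0528 in edgeR) and without H1650 T0 replicate 1 (0.16). ANKRD1 was 2.62-fold lower in H1650, TEAD4 2.03-fold lower and WWTR1 1.64-fold lower. TEAD1 did not pass the test, at 0.03 (95% interval -0.14 to 0.19).

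Under drug the order of the lines was reversed for CCN1, CCN2 and AMOTL2 with both inhibitors and for ANKRD1 with erlotinib, a comparison that was also added after the changes had been seen. With erlotinib 9 of the 10 genes differed between the lines, where 72.1% of all genes did, and with osimertinib 7 did, where 71.6% of all genes did. CCN2 was lower in H1650 than in PC9 by 0.54 (SE 0.0878) with erlotinib and by 1.52 (SE 0.0860) with osimertinib on the log2 scale, and CCN1 by 0.31 (SE 0.0687) and 0.56 (SE 0.0683). AMOTL2 was lower in H1650 by 1.08 (SE 0.0733) and 1.04 (SE 0.0731). ANKRD1, lower in H1650 at T0, was higher there by 1.66 (SE 0.319) with erlotinib, and its osimertinib value of 0.22 (SE 0.290) was not called. WWTR1, which differed at T0, had 0.08 (95% interval -0.08 to 0.24) and -0.01 (-0.17 to 0.15) and was called with neither drug. YAP1 stayed higher in H1650, by 0.81 (SE 0.0703) and 0.68 (SE 0.0703), and TEAD4 stayed lower, at -0.99 (SE 0.0978) and -1.08 (SE 0.100).

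Ordered by level per kilobase of deposited gene length, CCN1 came first in all groups, from 81.5 ± 0.083 CPM per kilobase (SD, n = 2) in erlotinib-treated H1650 to 438 ± 17.7 in H1650 at T0. AMOTL2 was second in the 3 PC9 groups, CCN2 in H1650 at T0 and YAP1 in the 2 treated H1650 groups. CCN2 was in the seventh place in PC9 at T0 (12.1 ± 1.31) and in the third in both treated groups (26.1 ± 2.58 and 57.8 ± 1.20). ANKRD1 went from the eighth place in PC9 at T0 (10.0 ± 0.973) to the last after erlotinib (0.401 ± 0.215), and it was last in every H1650 group. Neighbours whose means differed by no more than the sum of their SDs included TEAD1, WWTR1, CCN2 and ANKRD1 in PC9 at T0, CCN2 and YAP1 as well as TEAD1 and TEAD4 in PC9 after erlotinib, and LATS2, TEAD4 and CCN5 in H1650 after osimertinib. Between genes, the order depends on the length used.

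The rest of the pathway was taken from 4 lists of 43 genes. The first holds 18 kinases, adaptors and upstream regulators of the Hippo cascade. In PC9, 5 rose and 8 fell with erlotinib, and 6 rose and 8 fell with osimertinib, where 61.8% and 61.4% of all tested genes were called. In H1650, 2 rose and 8 fell with each drug, where 36.5% and 35.7% of all genes were called. NF2, which encodes the membrane-linked regulator merlin, fell by 1.65 (SE 0.0924) and 1.45 (SE 0.0926) in PC9 and by 0.51 (SE 0.0843) and 0.56 (SE 0.0842) in H1650. MAP4K4, a kinase that acts on LATS, fell by 1.51 (SE 0.0898) and 1.31 (SE 0.0895) in PC9 and by 0.50 (SE 0.0905) and 0.64 (SE 0.0907) in H1650. FRMD6, a FERM domain protein, and LIMD1, a LIM protein, also fell in all 4 comparisons, whereas AMOT, the founding angiomotin, rose in all 4, by 1.01 and 1.17 in PC9 and by 1.17 and 1.72 in H1650. The lowest drug-by-line differences were those of AJUBA, a LIM protein that binds LATS kinases (-1.80, SE 0.119, and -2.18, SE 0.120), and WWC2, a relative of KIBRA (-1.23, SE 0.107, and -1.16, SE 0.107). AJUBA had 74.1 and 67.8 CPM in PC9 at T0 and between 139 and 156 CPM in the treated libraries, against 113 and 102 CPM in H1650 at T0 and between 44.7 and 69.0 CPM after treatment.

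The second list holds TEAD2, TEAD3 and the VGLL cofactors VGLL1, VGLL3 and VGLL4, which bind TEAD proteins in place of YAP. All 5 rose in PC9 with each drug, by a median of 0.91 and 1.06, where 32.7% of all tested genes rose with either. In H1650, 2 rose and 2 fell with erlotinib, and 3 rose and 1 fell with osimertinib, where 36.5% and 35.7% of all genes were called. VGLL3 had 34.2 and 37.1 CPM in PC9 at T0, 158 and 176 CPM after erlotinib and 228 and 235 CPM after osimertinib, a rise of 2.23 (SE 0.0902) and 2.70 (SE 0.0911). In H1650 VGLL3 fell by 0.45 (SE 0.0855) with erlotinib, and the osimertinib value was -0.04 (SE 0.0843), not called. TEAD3 and VGLL4 rose in all 4 comparisons, TEAD3 by 0.71 and 0.80 in PC9 and by 0.39 and 0.44 in H1650. TEAD2 rose by 1.20 (SE 0.0794) and 1.39 (SE 0.0798) in PC9 and fell by 0.70 (SE 0.0870) and 0.24 (SE 0.0840) in H1650. Genes on the opposite strand overlap 22.1% of the exon bases of VGLL4, 10.7% of those of TEAD2 and 25.9% of those of WWC2.

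The last list holds 17 other genes known as targets of YAP and TEAD. In PC9, 8 rose and 6 fell with erlotinib and 11 rose and 5 fell with osimertinib, with medians of 0.10 and 0.78, against 61.8% and 61.4% of all genes called. In H1650, 16 fell and none rose with erlotinib, and 15 fell and 1 rose with osimertinib, with medians of -0.58 and -0.59, where 18.5% and 17.9% of all genes fell. The H1650 genes outside this pattern were NT5E with erlotinib (-0.08, SE 0.0997, not called), and PTPN14 (-0.22, not called) and CCDC80 (0.21, the 1 gene that rose) with osimertinib, named after their values were seen. The drug-by-line difference was called for 14 of the 17 with erlotinib, 12 of them lower in H1650, and for 15 with osimertinib, again with 12 lower, where 40.8% and 41.9% of all genes were called and 19.8% and 20.5% were lower. IGFBP3, an insulin-like growth factor binding protein, had 1031 and 1038 CPM in PC9 at T0, rose by 1.41 (SE 0.0714) and 2.52 (SE 0.0740) there, and fell by 1.80 (SE 0.0726) and 1.11 (SE 0.0711) in H1650. NT5E, which encodes the ectonucleotidase CD73, had the highest drug-by-line differences of the list, 2.25 (SE 0.129) and 2.15 (SE 0.133). It had 263 and 273 CPM in PC9 at T0 and between 41.3 and 56.1 CPM there after treatment, and in H1650 it fell by 0.48 (SE 0.102) with osimertinib. RBMS3, an RNA-binding protein, rose in PC9 from 0.605 and 0.691 CPM to 12 and 13.9 CPM after erlotinib and to 18.3 and 19.5 CPM after osimertinib. AXL, a receptor tyrosine kinase, fell by 0.93 (SE 0.0743) and 0.76 (SE 0.0742) in PC9 and by 1.46 (SE 0.0800) and 1.26 (SE 0.0789) in H1650. FJX1, DOCK5 and FOXF2 also fell in all 4 comparisons, FJX1 by 2.51 and 2.39 in PC9, while FOXF2 rested on less than 1 CPM in every PC9 library.

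**Figure D4:**
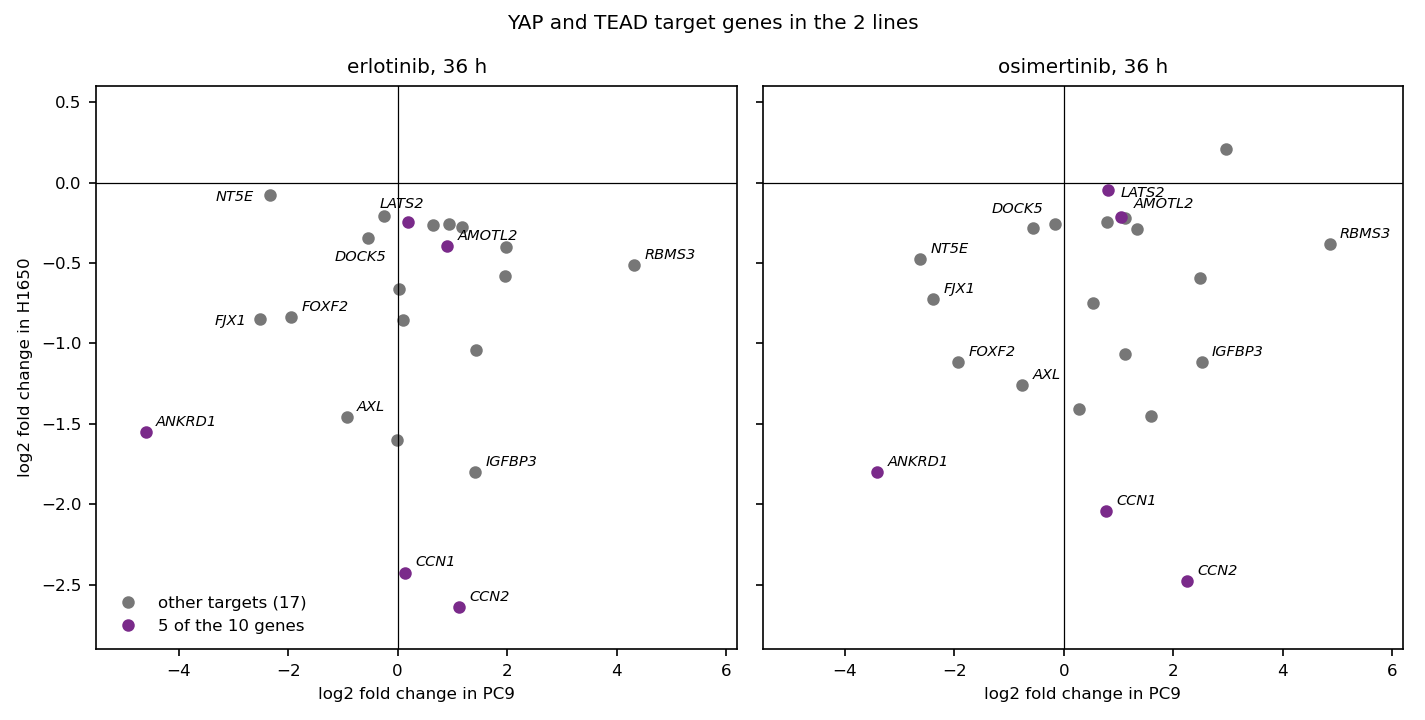
Log2 fold change against T0 in PC9 (x axis) and in H1650 (y axis) for erlotinib (left) and osimertinib (right), with 1 point a gene. Purple points are CCN1, CCN2, ANKRD1, AMOTL2 and LATS2, and grey points are the 17 other target genes. Of these 17, AXL, FJX1, FOXF2, DOCK5, RBMS3, IGFBP3 and NT5E are labelled. Every point is below 0 in H1650 with erlotinib, while the points spread from -4.60 to 4.31 in PC9.

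Stretches near the transcription start that hold the TEAD recognition letters are shown for CCN2, ANKRD1, AMOTL2 and YAP1. The letters can so be read beside targets whose mRNAs took different courses. RefSeq promoters (GRCh38.p14, 250 bases before to 50 after a start) matched 6 of the 10 genes, YAP1, WWTR1, CCN2, ANKRD1, AMOTL2 and LATS2, with 8 windows in all, and CCN1, CCN5, TEAD1 and TEAD4 were not among them. GGAATG was searched on both strands. It occurred in 5 of the 8 windows (62.5%), against 4928 of 35116 windows of all promoters (14%) and 10 of 47 windows of the 4 pathway lists (21.3%). The genes were picked as members of this axis, several as known targets of YAP and TEAD, so these shares are descriptions without a test. The AP-1 letters TGANTCA, also searched on both strands, occurred in 1 of the 8 windows (12.5%), against 7.71% of all promoters. CCN2, whose mRNA rose in PC9 and fell in H1650, had the most TEAD matches, with first bases 169, 104 and 95 bases before the start. The stretch before its first exon is chr6:131951374-131951622, minus strand, given 5′ to 3′ with the TEAD letters in capitals.
CCN2 upstream: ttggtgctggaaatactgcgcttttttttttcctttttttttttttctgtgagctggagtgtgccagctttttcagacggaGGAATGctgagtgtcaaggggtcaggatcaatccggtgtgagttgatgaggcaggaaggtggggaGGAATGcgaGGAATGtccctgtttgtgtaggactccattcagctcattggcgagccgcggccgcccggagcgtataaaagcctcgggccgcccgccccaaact
ANKRD1, whose mRNA fell in both lines, had TEAD letters 220 and 128 bases before its RefSeq start and AP-1 letters 195 bases before it. They are printed as 30 bases each on the gene's minus strand, from chr10:90921290-90921319, chr10:90921198-90921227 and chr10:90921265-90921294, with the letters found in capitals. The first exon of ANKRD1 in GENCODE 29 starts further upstream than the RefSeq start and holds the second TEAD match and part of the AP-1 match.
ANKRD1 TEAD, first: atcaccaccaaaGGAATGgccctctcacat
ANKRD1 TEAD, second: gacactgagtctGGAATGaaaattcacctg
ANKRD1 AP-1: cacatttcttccTGATTCAcatattcagca
AMOTL2 had 1 match, as the reverse complement, 69 bases before one of its 2 starts (chr3:134374499-134374528, minus strand), and this match lies within an exon of AMOTL2 in GENCODE 29. YAP1 had 1 match 162 bases before its start (chr11:102110273-102110302, plus strand).
AMOTL2 TEAD: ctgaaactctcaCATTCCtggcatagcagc
YAP1 TEAD: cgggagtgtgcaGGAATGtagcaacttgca
The fifth window with the letters was that of LATS2, 10 bases after the RefSeq start, and its stretch is not printed. No match found in the 10 genes overlapped another. The absence of a match says only that these letters are not in that window.

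The course of CCN1 over the 12 libraries was most like that of SFXN3 (Pearson correlation of log2 CPM 0.972), KRT80 (0.936) and TRNAU1AP (0.935), among 10293 genes with a mean of at least 10 CPM. CCN2 was nearest to TRNAU1AP (0.968), LIMA1 (0.956) and SFXN3 (0.954), ANKRD1 to NRM (0.981), HMGB3 (0.981) and TYRO3 (0.976), and YAP1 to AP1G1 (0.996), TM9SF3 (0.994) and CHD9 (0.994). Among the 10 genes themselves the closest pair was CCN1 and CCN2 (0.923), followed by TEAD1 and AMOTL2 (0.827). ANKRD1 and CCN2, both read out as targets of YAP and TEAD, had -0.0838. LIMA1, which encodes an actin-binding protein, had 148 and 164 CPM in PC9 at T0, 370 and 412 CPM there after osimertinib, 445 and 466 CPM in H1650 at T0 and between 214 and 249 CPM in treated H1650. These correlations are descriptions over 12 libraries that fall into 6 groups of 2 and share lines and treatments.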

How the data were processed

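PolyA RNA of PC9 and H1650 cells was sequenced, and DolphinNext was the pipeline with which the authors handled the reads. The deposited values are whole-number counts of reads per gene and library from featureCounts, without normalization. The submitters' processing notes name GRCh38 and DESeq2, and the aligner, annotation and strandedness are not given in the sources used here. All 12 per-library columns were used and were grouped by their labels.

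All fits were made with edgeR 4.0.16 under R 4.3.3. The filter by group (filterByExpr, minimum count 10, total count 15) kept 19108 genes. Library sizes of 17961765 to 26346187 were scaled by TMM, and 1 quasi-likelihood model with 6 groups was fitted to the 12 libraries (6 residual and 20.7 prior degrees of freedom, biological coefficient of variation 0.0656). Pearson correlations between the replicates of a group were at least 0.990. Adjusted p-values are Benjamini-Hochberg over all tested genes. A fold against a group at 0 was computed against 3 reads per library. Levels per kilobase use the gene length column of the deposited table, and positions, exon overlaps and the longest transcripts are from GENCODE 29 on GRCh38.

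The 10 genes, the 4 pathway lists and the marker lists were written from general knowledge, with earlier results of these data known. Named genes are the 10, list genes whose 4 changes against T0 were all called with 1 sign, and, per list, the genes with the 2 highest and 2 lowest drug-by-line values. The comparison of the lines under each drug, the line dependence of the drug-to-drug difference and the counts over 2-fold were added after the data were seen. The alternatives comprised a DESeq2 1.42.0 fit, scaling by RLE or upper quartile normalization, a filter of at least 10 counts per library or none, a threshold of 0.01 on the adjusted p, separate fits of the lines, a replicate block, the longest transcript length, Spearman correlation, and leaving out each library. Before use, the fit was tested on simulated data.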

Additional observations from a re-analysis of the deposited data

Results flagged for a closer look

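For 8 of the 10 genes the change from T0 to 36 h of drug differed between the lines by edgeR's test of the difference itself. The value is the log2 change in H1650 minus that in PC9. It holds time in culture along with drug, because no vehicle library of 36 h was analysed here. The same test called 40.8% of all tested genes with erlotinib and 41.9% with osimertinib. With erlotinib the difference was -3.75 for CCN2, -2.56 for CCN1, -1.30 for AMOTL2, -0.69 for TEAD1 and -0.44 for LATS2, and 3.05 for ANKRD1 and 0.79 for WWTR1. With osimertinib it was -4.73 for CCN2, -2.81 for CCN1, -1.26 for AMOTL2, -1.04 for TEAD1 and -0.85 for LATS2, and 1.61 for ANKRD1 and 0.70 for WWTR1. For CCN5, whose PC9 T0 libraries held 0 reads, the difference was at most -4.70 with erlotinib and at most -4.46 with osimertinib, computed against 3 reads per library. The difference between osimertinib and erlotinib was also unequal in the lines for CCN2, at -0.98 in H1650 relative to PC9.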

How the results depend on the processing

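In the 4 comparisons with T0, the 2 drug-by-line comparisons and the 3 comparisons of the lines, the counts of called genes stayed within 1.5 times. This held for the 10 genes, the pathway lists and all tested genes, without a fold limit, under all alternatives that were run. Among the counts of the drug-to-drug comparisons and of their line dependence, several moved. For osimertinib against erlotinib in PC9, all genes called numbered 1930 at an adjusted p under 0.01 (3163 otherwise), and without single libraries the 10 genes gave 3 to 5 calls, the pathway lists 9 to 14 and all genes 2108 to 3234. In H1650 that comparison gave 2 of the 10 genes with upper quartile normalization and also with a filter of 10 counts per library (1 otherwise), 912 genes in all at an adjusted p under 0.01 (1672 otherwise), and 1 to 2 of the 10 and 782 to 1818 of all genes without single libraries. The line dependence of the drug-to-drug difference gave 2 of the 10 genes with DESeq2, RLE normalization and no filter (1 otherwise), 500 genes in all at an adjusted p under 0.01, and 1 to 3 of the 10 and 3 to 8 of the pathway lists without single libraries. With the longest transcript as length, 8, 6 and 8 of the 10 places in the order of levels were kept in PC9 (T0, erlotinib, osimertinib) and 4, 5 and 5 in H1650. By Spearman correlation, 1 of the 3 genes most like CCN1, ANKRD1 and YAP1 was kept and 0 for CCN2. The cause was not tested, apart from the threshold itself.

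Over all tested genes, deviations of libraries with the same replicate number showed little correlation (between -0.0671 and 0.0947 over 15 pairs of groups). This check does not settle whether the replicate numbers pair the samples for some of the genes. With the replicate number as a block, osimertinib against erlotinib in H1650 gave 4 of the 10 genes and 2670 in all, and its line dependence 5 of the 10, 10 of the pathway lists and 1722 in all.

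Among single genes, the call of YAP1 in PC9 with erlotinib was lost with upper quartile normalization, a filter of 10 counts per library and the 0.01 threshold, and that of CCN5 in H1650 with erlotinib was lost with RLE, no filter, DESeq2 and the 0.01 threshold. WWTR1 in PC9 with osimertinib was called with no filter (-0.23), in the separate fits (-0.20) and with the replicate block, which also called CCN1 in PC9 with erlotinib (0.14). The filter of 10 counts per library removed CCN5.

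Values that changed sign were not called either way. They were YAP1 in PC9 with osimertinib (0.031 with upper quartile normalization, 0.0076 with a filter of 10 counts per library), and, under the same settings, the drug-by-line values of TEAD4 with erlotinib (-0.054 and -0.0018) and YAP1 with osimertinib (-0.045 and -0.019). With no filter they were TEAD4 with osimertinib between the lines (0.020), TEAD1 at T0 between the lines (-0.027) and WWTR1 under osimertinib between the lines (0.011). Without single libraries, YAP1 ranged from -0.126 to 0.0227 in H1650 with erlotinib and LATS2 from -0.158 to 0.0567 with osimertinib. Drug-by-line values ranged from -0.0705 to 0.145 (TEAD4, erlotinib), -0.153 to 0.062 (TEAD4, osimertinib) and -0.0266 to 0.054 (YAP1, osimertinib). Between the drugs they were -0.117 to 0.0848 (CCN5, PC9), -0.0512 to 0.0976 (YAP1, H1650) and -0.0591 to 0.133 (AMOTL2, line dependence), and between the lines -0.0225 to 0.0712 (TEAD1, T0) and, under osimertinib, -0.0621 to 0.0441 (WWTR1), -0.121 to 0.595 (ANKRD1) and -0.0666 to 0.148 (LATS2). Where leaving out a library left a group with 1 sample, that sample was assumed to vary like the other groups. Depth limited CCN5, whose changes from PC9 T0 could be given only as bounds, and ANKRD1, at 11 to 42 reads in treated PC9.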

Other observations

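From the core of the kinase cascade, LATS1, STK4 and SAV1 are described here, with calls from the same edgeR fit. They were named after their values were seen, and STK3, MOB1A and MOB1B of the same list are not described. LATS1, the paralog of LATS2, fell by 0.38 (SE 0.104) with osimertinib in PC9, and its other 3 values against T0 lay between -0.10 and -0.06 and were not called. STK4, which encodes the kinase MST1, fell by 0.44 (SE 0.0725) and 0.54 (SE 0.0732) in PC9, and its H1650 values of -0.12 and -0.17 were not called. The scaffold SAV1 rose by 0.60 (SE 0.0856) and 0.41 (SE 0.0868) in PC9, and its H1650 values were 0.15 and -0.04, not called, and its exons overlap ATL1 on the other strand over 14.9% of their bases. The drug-by-line difference was called for STK4 (0.32 and 0.37) and SAV1 (-0.45 and -0.44), and for LATS1 it was 0.03 and 0.27, not called.

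Further targets with large differences between the lines were TGFB2, a ligand of the TGF-beta family, and GADD45A, a growth arrest gene, also named after their values were seen. TGFB2 had 48.3 and 49.3 CPM in PC9 at T0, 186 and 196 CPM after erlotinib and 284 and 264 CPM after osimertinib. In H1650 it had 31.5 and 30.6 CPM at T0 and 18.1 to 23.1 CPM in the treated libraries. TGFB2-OT1, on the same strand, overlaps 26.6% of the exon bases of TGFB2. GADD45A rose by 1.43 (SE 0.0867) and 1.60 (SE 0.0871) in PC9 and fell by 1.04 (SE 0.0955) and 1.45 (SE 0.0978) in H1650. F3, which encodes tissue factor, was at 742 and 757 CPM in PC9 at T0 and 724 and 768 CPM after erlotinib (log2 -0.01, SE 0.0672, not called). In H1650 F3 fell by 1.60 (SE 0.0753) with erlotinib and was among the 15 listed targets that fell with osimertinib. Its PC9 value with osimertinib is not described here.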
